A study of Mus musculus with 27 samples.

Results

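The genes described here are 10 mouse heat shock chaperones and co-chaperones, Hsph1, Stip1, Hspa8, Hsp90aa1, Hsp90ab1, Hspa1b, Dnajb1, Dnaja1, Hspd1 and Hspe1, which were found in the gene count tables by Ensembl identifier among 52636 identifiers. They were chosen by name as targets of the heat shock transcription factor HSF1 when their genotype differences in these libraries were already known, so those differences are given as a description. The proteins of 8 of the 10 genes work in the cytosol, while Hspd1 and Hspe1 encode chaperonins of the mitochondrial matrix, so the name cytosolic does not cover them. The study compared wild-type mice with mice homozygous for the loss of an enhancer in the intergenic region of H19 and Igf2 (Igf2enh-/-), to ask what the enhancer does in the brain. RNA was taken from frontal cortex (FC; 6 wild-type and 6 Igf2enh-/- libraries, 3 female and 3 male in each) and striatum (STR; 7 wild-type libraries, 3 female and 4 male, and 8 Igf2enh-/- libraries, 4 female and 4 male) of adults about 2.5 months old. All mice were on the 129S1 background, and in Igf2enh-/- mice 1 loxP site, left from removing the selection cassette with an Hprt-CRE transgene, remains at the deletion. The labels do not tie libraries of both regions to one mouse or say that each library is a separate mouse, so p-values measure the spread between these libraries, which are named by the number that opens their label.

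Total counts ran from 23686945 to 33926904 per library, so that a level of 1 CPM, the usual unit of counts scaled to the library total, stood for 23.7 to 33.9 counts. Igf2 averaged 72.8 ± 19.0 CPM (SD, n = 6) in wild-type and 123 ± 27.7 CPM (n = 6) in Igf2enh-/- frontal cortex, and 38.2 ± 3.82 CPM (n = 7) and 78.2 ± 73.1 CPM (n = 8) in striatum, where library 15 reached 259 CPM. No gene was counted inside the deleted enhancer, so these values do not check the genotype. The summed level of 9 striatal marker genes was 177 to 258 CPM in frontal cortex and 3788 to 10474 CPM in striatum, and that of 8 cortical markers was 2296 to 2615 CPM in frontal cortex and 161 to 1286 CPM in striatum. Library 20, a wild-type striatal male, stood apart among striatal libraries with the lowest striatal sum, the highest cortical sum (1286 CPM) and the highest oligodendrocyte sum (10593 CPM over 8 genes). Library 15, an Igf2enh-/- striatal female, held a choroid plexus sum of 4618 CPM over 10 genes against at most 370 CPM in the other libraries. The striatal genotype differences of the chaperone genes are given with and without these libraries. Igf2 levels and within-group correlations are given with all libraries only.

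Molecular chaperones bind stretches of unfolded protein that would otherwise aggregate and let them refold. Hsc70 (Hspa8), present in all cells, and the stress-inducible Hsp70 (Hspa1b) work in a cycle of ATP hydrolysis that J-domain proteins such as Dnajb1 and Dnaja1 start and that nucleotide exchange factors such as the Hsp110 protein Hsph1 reset. The adaptor Stip1, also called Hop, holds Hsp70 and Hsp90 together and passes clients to Hsp90, of which Hsp90aa1 is the more inducible and Hsp90ab1 the more constitutive cytosolic form. In the mitochondrial matrix, the Hsp60 barrel (Hspd1) folds imported proteins under its lid Hsp10 (Hspe1). HSF1 is held inactive by chaperones in unstressed cells, and after heat or other damage to proteins it forms trimers that bind heat shock elements, runs of the 3-base unit GAA in alternating orientation.

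Promoter windows reach from 250 bases before to 50 bases after an annotated start site and come from RefSeq on build GRCm38.p6, a C57BL/6J genome and not that of the 129S1 strain. Windows were found for 7 of the 10 genes (12 windows in all), namely all but Hspa8, Hsp90aa1 and Hsp90ab1. They were searched for pairs of inverted units, GAANNTTC and TTCNNGAA, and for 3-unit runs, in which a pair of one kind and a pair of the other share their middle unit. Each pair reads the same on both strands, the 3-unit runs are reverse complements of each other, and each 3-unit run contains pairs. A pair was found in windows of 5 of the 7 genes, Hsph1, Hspa1b, Dnaja1, Hspd1 and Hspe1, and in 17.0% of 27025 mouse genes with a window (15.1% of 32851 windows). A 3-unit run was found for 3 of the 7 genes, Hsph1, Hspd1 and Hspe1, and for 0.662% of genes (0.603% of windows). The pair of Hspa1b lay at bases -104 to -97 from the start site and that of Dnaja1 at -124 to -117. In Hsph1 a pair lay at -33 to -26 and a 3-unit run at 37 to 49, within the transcribed part. Hspd1 and Hspe1 lie on opposite strands. The second Hspd1 window shares 285 bases with the Hspe1 window. These hold 1 run of overlapping matches, at -89 to -72 from the Hspe1 start and -144 to -127 from that Hspd1 start. The other Hspd1 window, whose start lies within the annotated Hspe1 gene, holds no match. No match was found in the windows of Stip1 and Dnajb1, which says only that these letters are not in these 300 bases.

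The 4 windows below show the 3-unit genes, the single pair of the most inducible member, and a window without a match, with matched letters in capitals.
Hsph1, chr5:149636287-149636586, minus strand: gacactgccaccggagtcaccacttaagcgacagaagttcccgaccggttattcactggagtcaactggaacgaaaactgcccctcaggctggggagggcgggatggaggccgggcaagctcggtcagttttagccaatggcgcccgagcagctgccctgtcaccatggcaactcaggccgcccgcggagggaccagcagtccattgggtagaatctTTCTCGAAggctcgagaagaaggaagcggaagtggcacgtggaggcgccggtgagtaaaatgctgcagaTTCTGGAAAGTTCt
Hspe1 with Hspd1 upstream of it, chr1:55087898-55088197, plus strand: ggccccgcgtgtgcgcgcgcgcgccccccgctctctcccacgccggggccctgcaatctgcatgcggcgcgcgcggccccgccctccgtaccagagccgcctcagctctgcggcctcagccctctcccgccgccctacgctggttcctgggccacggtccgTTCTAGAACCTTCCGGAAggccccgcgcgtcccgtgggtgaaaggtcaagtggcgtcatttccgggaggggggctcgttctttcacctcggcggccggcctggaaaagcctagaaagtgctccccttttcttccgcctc
Hspa1b, chr17:34959189-34959488, minus strand: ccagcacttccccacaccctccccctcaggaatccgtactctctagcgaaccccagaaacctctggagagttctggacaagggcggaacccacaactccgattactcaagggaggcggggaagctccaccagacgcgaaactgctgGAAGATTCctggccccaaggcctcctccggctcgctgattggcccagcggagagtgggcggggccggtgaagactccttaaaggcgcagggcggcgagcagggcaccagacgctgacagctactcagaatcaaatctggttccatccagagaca
Stip1, chr19:7039977-7040276, minus strand: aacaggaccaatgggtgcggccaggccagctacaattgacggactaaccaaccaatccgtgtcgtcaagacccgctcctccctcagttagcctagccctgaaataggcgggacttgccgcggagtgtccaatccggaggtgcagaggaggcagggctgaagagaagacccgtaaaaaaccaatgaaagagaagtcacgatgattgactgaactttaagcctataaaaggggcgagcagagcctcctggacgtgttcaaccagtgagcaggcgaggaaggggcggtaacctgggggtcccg

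**Figure D1:**
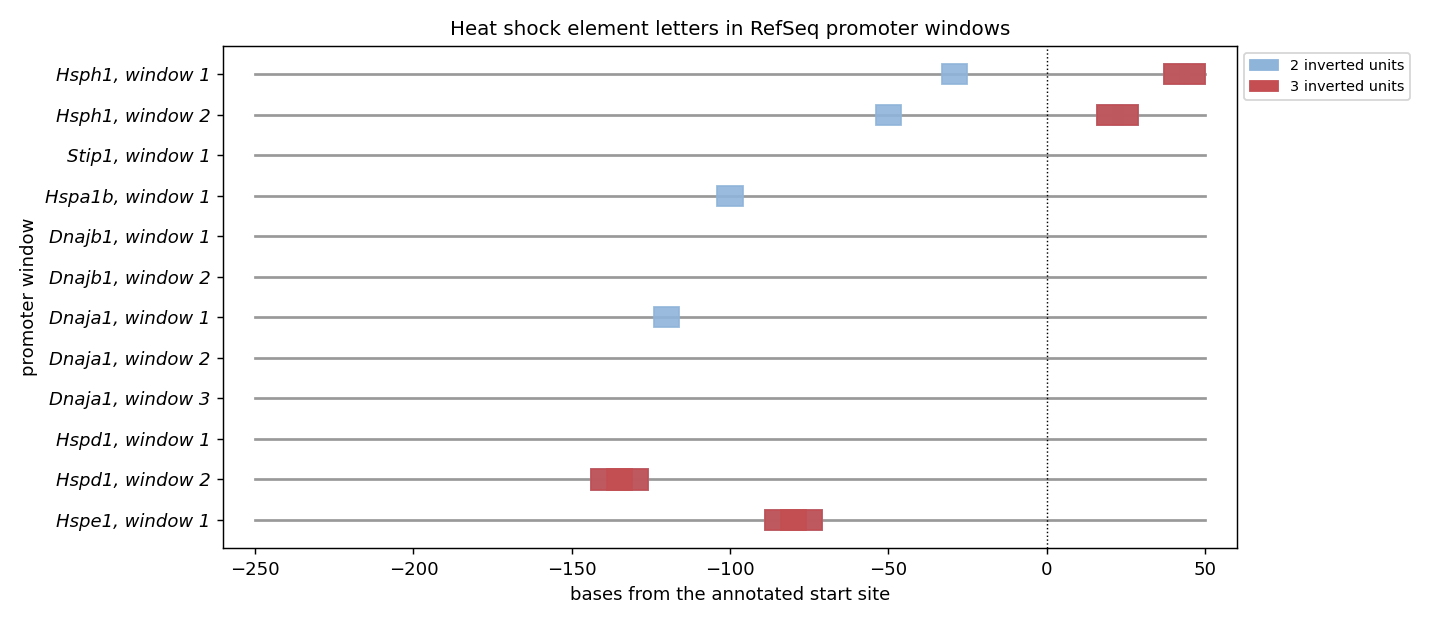
Positions of heat shock element letters in the 12 promoter windows (grey lines) of 7 genes, in bases from the annotated start site, with pairs of inverted units in blue and 3-unit runs in red. Hsph1, Hspd1 and Hspe1 hold 3-unit runs, and the windows of Stip1 and Dnajb1 hold no match.

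Levels are given as CPM scaled by the trimmed mean of M values (TMM) over all 27 libraries. Per kb of exon, in wild-type frontal cortex, Hsp90ab1 was the most abundant of the 10 at 487 ± 16.3 CPM per kb (SD, n = 6). Hsp90aa1 followed at 149 ± 5.71, Hspa8 at 104 ± 2.78, Stip1 at 58.4 ± 0.839, Hsph1 at 47.3 ± 1.68 and Hspd1 at 40.3 ± 1.82 CPM per kb. Dnajb1 stood at 23.5 ± 0.624, Dnaja1 at 16.3 ± 0.621, Hspe1 at 14.5 ± 0.762 and Hspa1b at 1.79 ± 0.211 CPM per kb. Neighbours in this order lay further apart than their summed SDs, which do not measure error in the exon lengths. Each length is the union of all annotated exons of a gene, 8.629 kb for Dnaja1 and 2.173 kb for Stip1. Before division by length Dnaja1 had more CPM than Stip1, 141 against 127, so the order depends on these lengths. The exon lengths come from an older annotation, on build NCBIM37, than the one counted on. The 10 genes together made up 3271 ± 83.8 CPM in wild-type frontal cortex, 3516 ± 62.5 CPM in Igf2enh-/- frontal cortex (n = 6 each), 2917 ± 149 CPM in wild-type striatum (n = 7) and 3154 ± 169 CPM in Igf2enh-/- striatum (n = 8). Hspa1b was close to the detection limit, with 10 to 234 counts per library, and Hspa1a, its near-identical neighbour, had 3.55 CPM in wild-type frontal cortex and 1.60 CPM in wild-type striatum, so that the split of reads between these genes is uncertain. Hspa8, Hsp90ab1, Hspd1 and Hspe1 have processed pseudogenes that can share reads with them. Each of the 10 passed the 1-CPM filter in frontal cortex and 9 in striatum, where Hspa1b fell to 0.403 CPM in library 14.

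**Figure D2:**
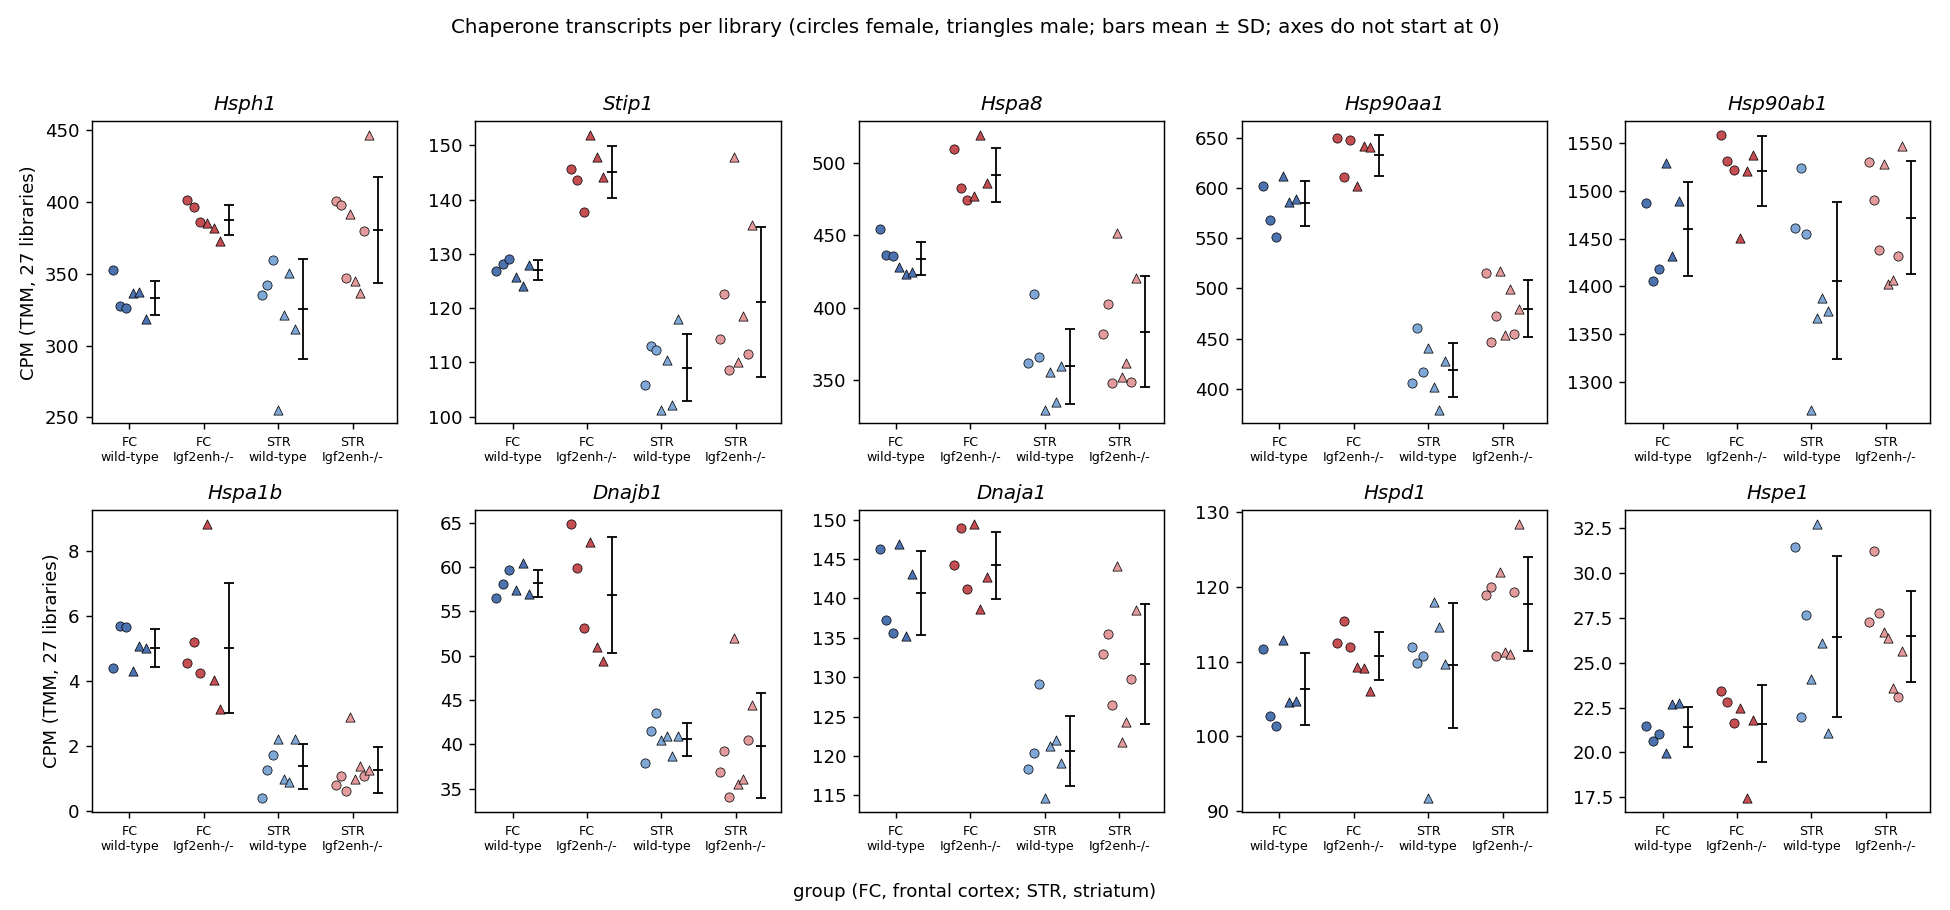
CPM of each gene (y axes, which do not start at 0) in each of the 27 libraries by region and genotype, with circles for females, triangles for males and bars for mean ± SD. In frontal cortex (FC) the Igf2enh-/- libraries of Hsph1, Stip1 and Hspa8 lie above all wild-type libraries, while those of Dnajb1 spread from 49.4 to 64.9 CPM around the wild-type range of 56.5 to 60.4 CPM.

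In frontal cortex, the Hsp70 exchange factor Hsph1, the adaptor Stip1 and Hsc70 (Hspa8) had higher levels in Igf2enh-/- than in wild-type mice, by log2 differences of 0.22, 0.19 and 0.18. Hsp90aa1 was higher by 0.11, and the other 6 genes differed by -0.04 to 0.06. These are the values with which the genes were chosen. By edgeR's quasi-likelihood test, 3 of the 10 genes passed an adjusted p of 0.05 for genotype, all higher, where 0.38% of the 13936 genes tested passed in either direction and 0.129% passed as higher.

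Hsph1 ran from 319 (median 332) to 353 CPM in wild-type and from 373 (median 386) to 401 CPM in Igf2enh-/- frontal cortex. Its log2 difference was 0.22 (SE 0.0299), and the groups did not overlap. Stip1 ran from 124 (median 127) to 129 CPM in wild-type and from 138 (median 145) to 152 CPM in Igf2enh-/- libraries, with a log2 difference of 0.19 (SE 0.0290). Here too every Igf2enh-/- library lay above the highest wild-type library. Hspa8 ran from 424 (median 432) to 455 CPM in wild-type and from 475 (median 485) to 520 CPM in Igf2enh-/- libraries, with a log2 difference of 0.18 (SE 0.0318) and no overlap. Across the transcriptome, 0.66% of tested genes had all Igf2enh-/- libraries above all wild-type libraries and 0.631% had them all below.

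Of these calls, that of Hsph1 was made in each of the 12 fits that left out 1 library. That of Stip1 was lost without library 9 or 10. That of Hspa8 was lost without library 4, 6, 8, 9, 10, 11 or 12, so that its adjusted p stood near the threshold, with 0.0961 as the highest of these fits (edgeR). Without library 9 or library 10, only Hsph1 of the 10 genes remained past the threshold.

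The other members of the Hsp70 and Hsp90 cycle showed smaller differences in frontal cortex. Hsp90aa1 ran from 551 (median 588) to 612 CPM in wild-type and from 603 (median 642) to 650 CPM in Igf2enh-/- libraries, a log2 difference of 0.11 (SE 0.0334), with 4 of 6 Igf2enh-/- libraries above all wild-type libraries. Hsp90ab1 differed by 0.06 (SE 0.0318) and the J-domain gene Dnaja1 by 0.03 (SE 0.0331). Dnajb1, the J-domain partner of inducible Hsp70, differed by -0.04 (SE 0.0615). Its wild-type libraries lay close together, from 56.5 (median 57.7) to 60.4 CPM, while Igf2enh-/- libraries ran from 49.4 (median 56.5) to 64.9 CPM, 2 of them above and 3 of them below all wild-type libraries. Hspa1b ran from 4.30 (median 5.03) to 5.68 CPM in wild-type and from 3.15 (median 4.41) to 8.82 CPM in Igf2enh-/- libraries, with its highest value in library 7. Its log2 difference was -0.01 with all libraries and -0.27 (SE 0.108, adjusted p = 0.253 in edgeR) without library 7. Its neighbour Hspa1a, from which its reads are hard to split, differed by 0.27 (SE 0.174) with all libraries. Among the mitochondrial genes, Hspd1 differed by 0.06 (SE 0.0348) and Hspe1 by 0.01 (SE 0.0653).

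In striatum, Hsph1 (log2 difference 0.23, SE 0.0746), Hsp90aa1 (0.20, SE 0.0481), Stip1 (0.16, SE 0.0632) and Dnaja1 (0.13, SE 0.0403) had the largest differences of the 9 genes tested, each higher in Igf2enh-/- mice. Hspd1 was higher by 0.11 (SE 0.0516), Hspa8 by 0.10 (SE 0.0655) and Hsp90ab1 by 0.07 (SE 0.0416), while Dnajb1 differed by -0.02 (SE 0.0772) and Hspe1 by 0.00 on the rounded scale (SE 0.0968). Of the 9, 0 passed an adjusted p of 0.05 in edgeR, where 0.036% of 13875 genes passed, and 4 were higher at an unadjusted p under 0.05, where 4.94% of genes were. DESeq2 called 1, Hsp90aa1, among 112 genes in all, and limma-voom and edgeR's likelihood ratio test called 0.

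Striatal libraries of the genotypes overlapped for every one of these genes. Hsph1 ran from 255 (median 335) to 360 CPM in wild-type and from 336 (median 386) to 447 CPM in Igf2enh-/- libraries, and 8 of 8 Igf2enh-/- libraries lay above the wild-type median. Hsp90aa1 ran from 379 (median 417) to 460 CPM in wild-type and from 447 (median 476) to 518 CPM in Igf2enh-/- libraries, with 5 of 8 above all wild-type libraries. Dnaja1 ran from 115 (median 120) to 129 CPM in wild-type and from 122 (median 131) to 144 CPM in Igf2enh-/- libraries. All 8 of its Igf2enh-/- libraries were above the wild-type median, as were those of Hsp90aa1, Hsp90ab1 and Hspd1. Stip1 ran from 101 (median 111) to 118 CPM in wild-type and from 109 (median 116) to 148 CPM in Igf2enh-/- libraries, where library 19 held the highest value. Hspa1b, tested without the filter, ran from 0.403 (median 1.27) to 2.22 CPM in wild-type and from 0.625 (median 1.10) to 2.90 CPM in Igf2enh-/- libraries, a log2 difference of -0.11 (SE 0.295).

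Without libraries 15 and 20, which stood apart in their cell-type markers, the striatal log2 differences were 0.17 for Hsph1, 0.12 for Stip1, 0.23 for Hsp90aa1 and 0.11 for Dnaja1. They were 0.06 for both Hspa8 and Hspd1, 0.05 for Hsp90ab1, -0.03 for Dnajb1 and -0.06 for Hspe1. Without library 20 alone Hspd1 differed by 0.07. Without library 19 the differences of Hspa8, Stip1 and Dnajb1 were 0.05, 0.11 and -0.09. The study's library sheet changes how it records trimming loss between libraries 20 and 21. In libraries up to 20 (4 of each genotype) the differences were 0.27 for Hsph1, 0.19 for both Stip1 and Hsp90aa1, 0.17 for Dnaja1, 0.16 for Hspd1 and 0.11 for Hspe1. In libraries from 21 (3 wild-type and 4 Igf2enh-/-) they were 0.19, 0.13, 0.24, 0.08, 0.03 and -0.09 in the same order. The sign was the same in both sets for the first 5 of these genes and not for Hspe1. Hspa8, Hsp90ab1 and Dnajb1 are not given by set. The genes were chosen with their striatal differences known, so values by set are a description and no separate check.

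Over the 10 genes the median log2 difference was 0.06 in frontal cortex, and over the 9 in striatum 0.11, against 0.001 and 0.00 over all genes tested. In frontal cortex 8 of 10 and in striatum 7 of 9 lay above 0, as did 50.4% and 50.2% of all genes. The test of whether the genotype difference differed between regions called 0 of the 9 genes, and it called 0.0% of all 13414 genes tested. At an unadjusted p under 0.05 there were 0 of the 9, where 3.02% of genes were. DESeq2 and limma-voom also called 0 of all genes, so the count of 0 is not particular to the chaperone genes. The largest of these terms were 0.09 (SE 0.0515) for Dnaja1 and -0.09 (SE 0.0777) for Hspa8.

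**Figure D3:**
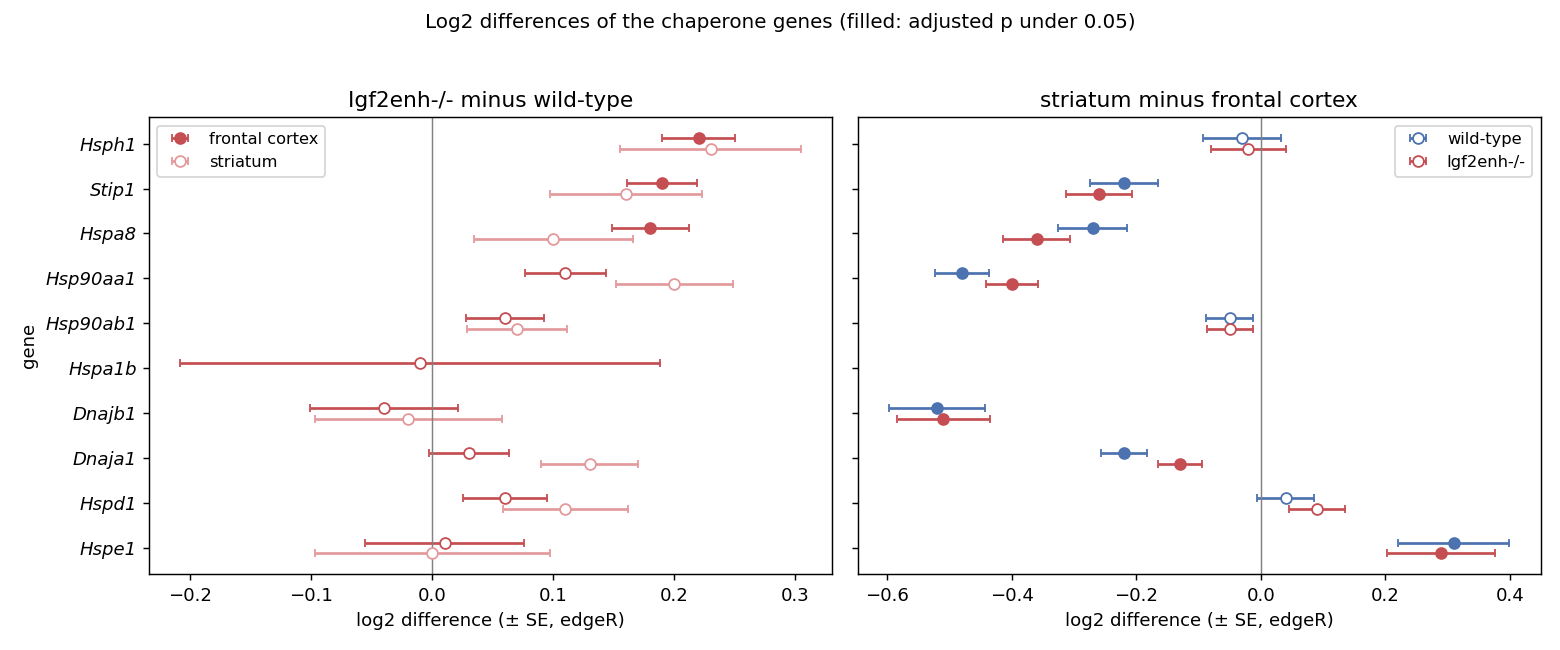
Log2 differences (x axes, ± SE from edgeR) of each gene (y axis), for Igf2enh-/- minus wild-type in each region on the left and striatum minus frontal cortex in each genotype on the right, with filled points past an adjusted p of 0.05. The genotype differences reach 0.23 while the regional differences reach -0.52, and Hspa1b is absent where it did not pass the filter.

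Unlike genotype, the comparison of regions played no part in choosing the genes. In wild-type mice, 5 of the 9 genes tested had lower levels in striatum than in frontal cortex and 1, Hspe1, had a higher level. Dnajb1 fell by 0.52 on the log2 scale (SE 0.0774, adjusted p = 1.92e-06 in edgeR), Hsp90aa1 by 0.48 (SE 0.0436, adjusted p = 7.05e-10 in edgeR) and Hspa8 by 0.27 (SE 0.0557, adjusted p = 0.000129 in edgeR). Stip1 fell by 0.22 (SE 0.0542, adjusted p = 0.000789 in edgeR) and Dnaja1 by 0.22 (SE 0.0369, adjusted p = 9.86e-06 in edgeR). The Hsp10 gene Hspe1 rose by 0.31 (SE 0.0893, adjusted p = 0.00378 in edgeR). Hsph1, Hsp90ab1 and Hspd1 differed by -0.03 (SE 0.0622), -0.05 (SE 0.0379) and 0.04 (SE 0.0460) and did not pass. Regional differences were common, and 67.7% of 13414 genes passed, 33.2% as lower and 34.5% as higher.

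Wild-type libraries ran from 56.5 to 60.4 CPM in frontal cortex and from 37.9 (median 40.9) to 43.6 CPM in striatum for Dnajb1. Hsp90aa1 ran from 551 to 612 CPM in frontal cortex and from 379 to 460 CPM in striatum. Striatal and cortical wild-type libraries did not overlap for these genes, or for Hspa8, Stip1 and Dnaja1, where 19.5% of genes had all striatal libraries lower. Hspe1 ran from 20.0 (median 21.2) to 22.7 CPM in wild-type frontal cortex and from 21.1 (median 26.1) to 32.8 CPM in wild-type striatum, so that 5 of 7 striatal libraries lay above all cortical ones. Hspa1b, tested without the filter, fell by 1.88 on the log2 scale (SE 0.271, adjusted p = 9.68e-07 in edgeR), and none of its striatal libraries reached the lowest cortical library.

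Igf2enh-/- mice gave the same calls for region, with 5 genes lower and Hspe1 higher. There, 68.9% of all genes passed, 34.5% in each direction. Dnajb1 fell by 0.51 (SE 0.0748), Hsp90aa1 by 0.40 (SE 0.0421), Hspa8 by 0.36 (SE 0.0538), Stip1 by 0.26 (SE 0.0523) and Dnaja1 by 0.13 (SE 0.0358) on the log2 scale, and Hspe1 rose by 0.29 (SE 0.0868). Hsph1 differed by -0.02 (SE 0.0603), Hsp90ab1 by -0.05 (SE 0.0367) and Hspd1 by 0.09 (SE 0.0446). Striatal and cortical libraries did not overlap for Hspa8, Hsp90aa1 and Hspa1b, where 21.3% of genes had all striatal libraries lower. The 5 falls and the rise of Hspe1 passed in all 9 alternative fits and all 27 fits without 1 library, in both genotypes. The difference between the chaperonin genes Hspd1 and Hspe1, of which the Hspe1 window overlaps the second Hspd1 window, was not tested.

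Marker genes of cell types differed between regions. Of 8 oligodendrocyte markers, 8 passed as higher in striatum in both genotypes, where 34.5% of all genes did. The sum of these 8 went from 1032 to 2136 CPM in frontal cortex to 4865 to 10593 CPM in striatum. Of 8 neuronal markers, 6 passed as lower in wild-type striatum, where 33.2% of all genes did. The sum of the 8 went from 7573 to 8769 CPM in frontal cortex to 5123 to 6426 CPM in striatum. Of 8 microglial markers, 6 passed as higher in wild-type striatum. Of 8 astrocyte markers, 1 passed as higher and 1 as lower there. The part of these markers in the regional chaperone differences was not tested. In such bulk tissue fewer cells of a type and less RNA per cell cannot be told apart.

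Sex separated none of the chaperone genes that passed the filter. In the fits of frontal cortex and striatum, 0 of 10 and 0 of 9 genes passed an adjusted p of 0.05 for sex, and edgeR called 0.0431% and 0.0432% of all genes. At an unadjusted p under 0.05 there were 0 in either region, against 7.56% and 10.8% of all genes. Male minus female differences of the genes tested ran from -0.06 (Dnajb1, SE 0.0615) to 0.03 (Hspa1b, SE 0.198) in frontal cortex and from -0.08 (Hspe1, SE 0.0968) to 0.07 (Dnajb1, SE 0.0773) in striatum. Striatal Hspa1b, tested without the filter and near the detection limit, differed by 0.67 (SE 0.299, adjusted p = 0.689 in edgeR). Whether the genotype difference itself differed between sexes was also tested, and 0 of the chaperone genes passed in either region, where 0.0215% and 0.0% of all genes did, with 0 under an unadjusted p of 0.05, against 6.36% and 2.56% of all genes. In striatum Hspa8 had the smallest unadjusted p of these terms, with a log2 difference of 0.23 (SE 0.122) and an adjusted p of 1.00 in edgeR. DESeq2, limma-voom and edgeR's likelihood ratio test called 0 of the members for sex and for genotype by sex.

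Within groups, the chaperone genes varied together in part. After the mean of each genotype, sex and region was removed from log2 CPM, the median Pearson r over the 45 gene pairs was 0.38 over 27 libraries, 0.24 over the 12 of frontal cortex and 0.48 over the 15 of striatum. Of these pairs 36, 29 and 38 were above 0. The closest pairs over 27 libraries were Hsph1 with Hspd1 (r = 0.89), Stip1 with Hspa8 (r = 0.86) and Stip1 with Dnajb1 (r = 0.78). Library 20 deviated furthest from its group for both Hsph1 (-0.269) and Hspd1 (-0.235), and the r of this pair was not taken without it. Hsp90aa1 with Hspe1 (r = -0.44) was the lowest pair. These values are descriptions over libraries that share tissue pieces and scaling. In striatum, library 19, an Igf2enh-/- male, was the highest Igf2enh-/- library for Stip1, Hspa8, Hsp90aa1, Dnajb1, Dnaja1 and Hspa1b. Library 20 was the lowest wild-type library for Hsph1, Stip1, Hspa8, Hsp90ab1, Dnaja1 and Hspd1.

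**Figure D4:**
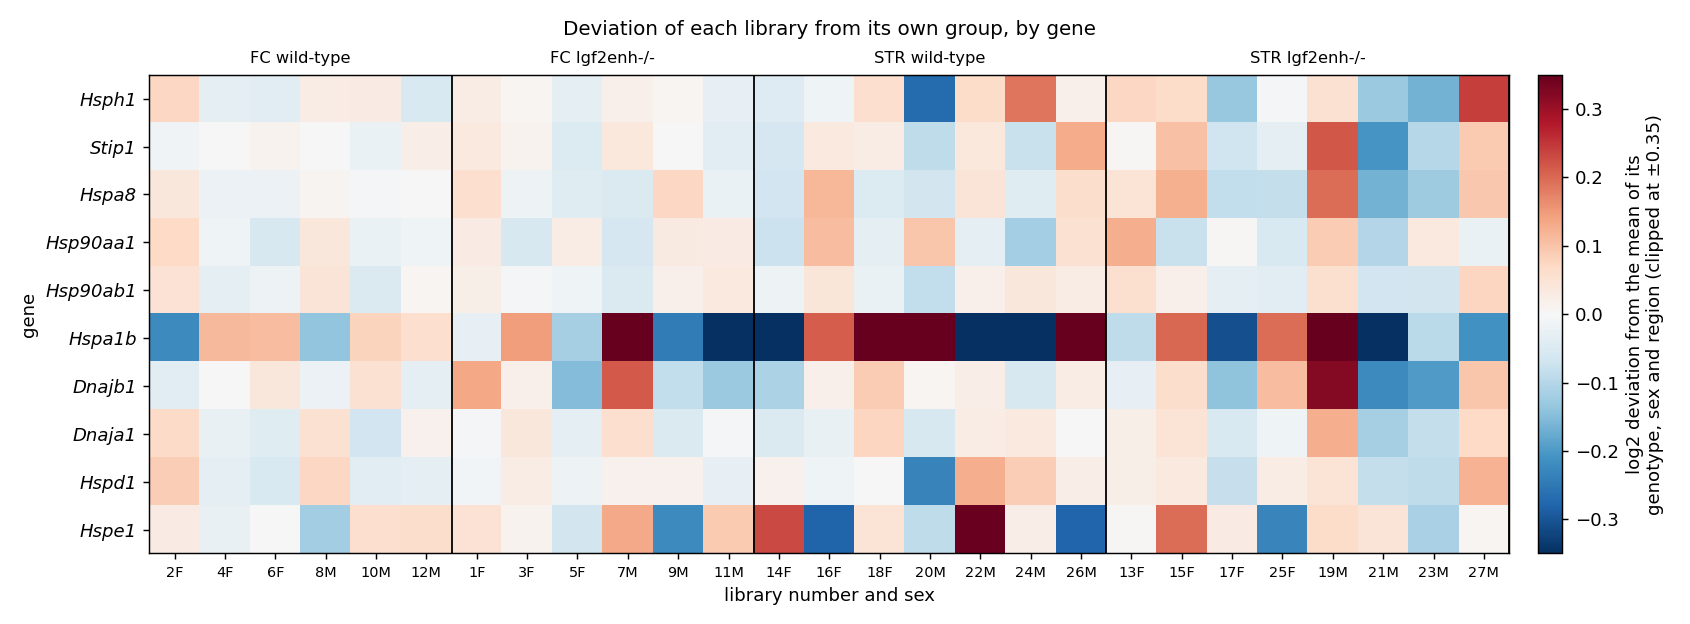
Log2 deviation of each of the 27 libraries (x axis) from the mean of its genotype, sex and region, for each gene (y axis), with red above and blue below and colours clipped at ±0.35. Library 19 is above its group for each of the 10 genes, and Hspa1b, the gene of lowest counts, varies most.

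The genes outside the set whose within-group deviations were most like the mean of the 10, among 13405 genes over 27 libraries, were Ptges3 (r = 0.81), Dedd2 (r = 0.79), Pdia3 (r = 0.78), Dnajc3 (r = 0.76) and Sox2 (r = 0.76). Ptges3 encodes p23, the Hsp90 co-chaperone that binds its closed form, and Pdia3 and Dnajc3 encode a disulfide isomerase and a J-domain protein of the endoplasmic reticulum. The mean is moved most by Hspa1b, the noisiest gene. Without Hspa1b, a choice made after its spread was seen, the leading genes were the TRiC subunit Cct7 (r = 0.85), Pdia3 (r = 0.85), Daxx (r = 0.84), the endoplasmic reticulum Hsp90 gene Hsp90b1 (r = 0.82) and Ubfd1 (r = 0.81). The list values that follow use the mean of all 10 and were not taken without Hspa1b. An r of 0.00 lay above 50.6% of the genes compared. Of 15 endoplasmic reticulum chaperone genes, 14 had an r above 0 with the mean of all 10 (median 0.65), as had 8 of 8 TRiC genes (median 0.41) and 14 of 14 immediate-early genes (median 0.53). Of the Hsp90 co-chaperones 14 of 16 had an r above 0 (median 0.255), while 4 of 9 Hsp70 exchange and binding factors (median -0.10), 4 of 10 clock genes (median -0.05) and 0 of 2 cold-inducible genes (median -0.35) did.

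The wider chaperone network was read from 9 lists of cytosolic and mitochondrial folding genes, with 75 of 82 genes tested in frontal cortex. In edgeR 0 of these genes passed an adjusted p of 0.05 for genotype in either region, and 12 were higher and 2 lower at an unadjusted p under 0.05 in frontal cortex (6.87% of all genes were higher there) and 7 and 2 in striatum, where 10.1% of all genes passed in either direction. Their median log2 difference was 0.02 in frontal cortex and 0.01 in striatum, with 52 and 41 genes above 0. The 8 subunits of TRiC, the cytosolic chaperonin that folds actin and tubulin, were each higher in Igf2enh-/- mice in both regions, by 0.04 to 0.09 in frontal cortex and 0.04 to 0.08 in striatum, and 4 of 8 in frontal cortex and 0 of 8 in striatum were under an unadjusted p of 0.05. Cct5 differed by 0.09 (SE 0.0261) and Cct7 by 0.08 (SE 0.0289) in frontal cortex.

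Of the Hsp90 co-chaperones, 14 of 16 were above 0 in frontal cortex and 10 of 16 in striatum. Ahsa1, which speeds the ATPase of Hsp90, differed by 0.12 (SE 0.0342) in frontal cortex, and Chordc1 by 0.15 (SE 0.0518) in striatum. Of the other Hsp70 and Hsp110 genes, 4 of 7 lay below 0 in frontal cortex (median -0.11, with 1 higher and 2 lower at an unadjusted p under 0.05) and 4 of 6 in striatum (median -0.02, with 2 higher). Hspa4l and Hspa4, relatives of Hsph1 in the Hsp110 family, differed by 0.24 (SE 0.0584) and 0.16 (SE 0.0450) in striatum and by 0.08 (SE 0.0388) and 0.09 (SE 0.0423) in frontal cortex. Of 4 tested genes for heat shock factors and their binding protein, 2 lay above 0 and 2 below in each region (median 0.01 in both). None of the 4 passed an adjusted p of 0.05 in edgeR. Among them Hsf1 differed by 0.10 (SE 0.0364) in frontal cortex and 0.03 (SE 0.0352) in striatum. Prefoldin genes, the Hsp70 exchange and binding factors and the cytosolic J-domain genes had medians between -0.05 and 0.04 in both regions. Of the 7 small heat shock proteins, 3 were tested in frontal cortex, at 0.05 to 0.12, and 4 in striatum, at -0.09 to 0.07 with 3 of them below 0.

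Chaperones of the endoplasmic reticulum, which fold secreted and membrane proteins and answer to another stress pathway, lay higher in Igf2enh-/- mice in 14 of 15 genes in each region. Their log2 differences had medians of 0.16 (frontal cortex) and 0.18 (striatum). In edgeR 2 passed in frontal cortex, Calr (0.21, SE 0.0351) and Pdia3 (0.16, SE 0.0276), where 0.129% of all genes passed as higher, and 0 passed in striatum. At an unadjusted p under 0.05, 10 of 15 were higher in frontal cortex and 11 of 15 in striatum, against 6.87% and 4.94% of all genes. Of 74 genes of the 9 lists tested over both regions, 31 fell and 19 rose in wild-type striatum. Of all genes tested, 33.2% fell and 34.5% rose there. The Hsp90 co-chaperones gave 9 falls, such as Tomm34 by 0.32 (SE 0.0348) and Ppp5c by 0.85 (SE 0.0828) on the log2 scale, and 3 rises among 16 genes.

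**Figure D5:**
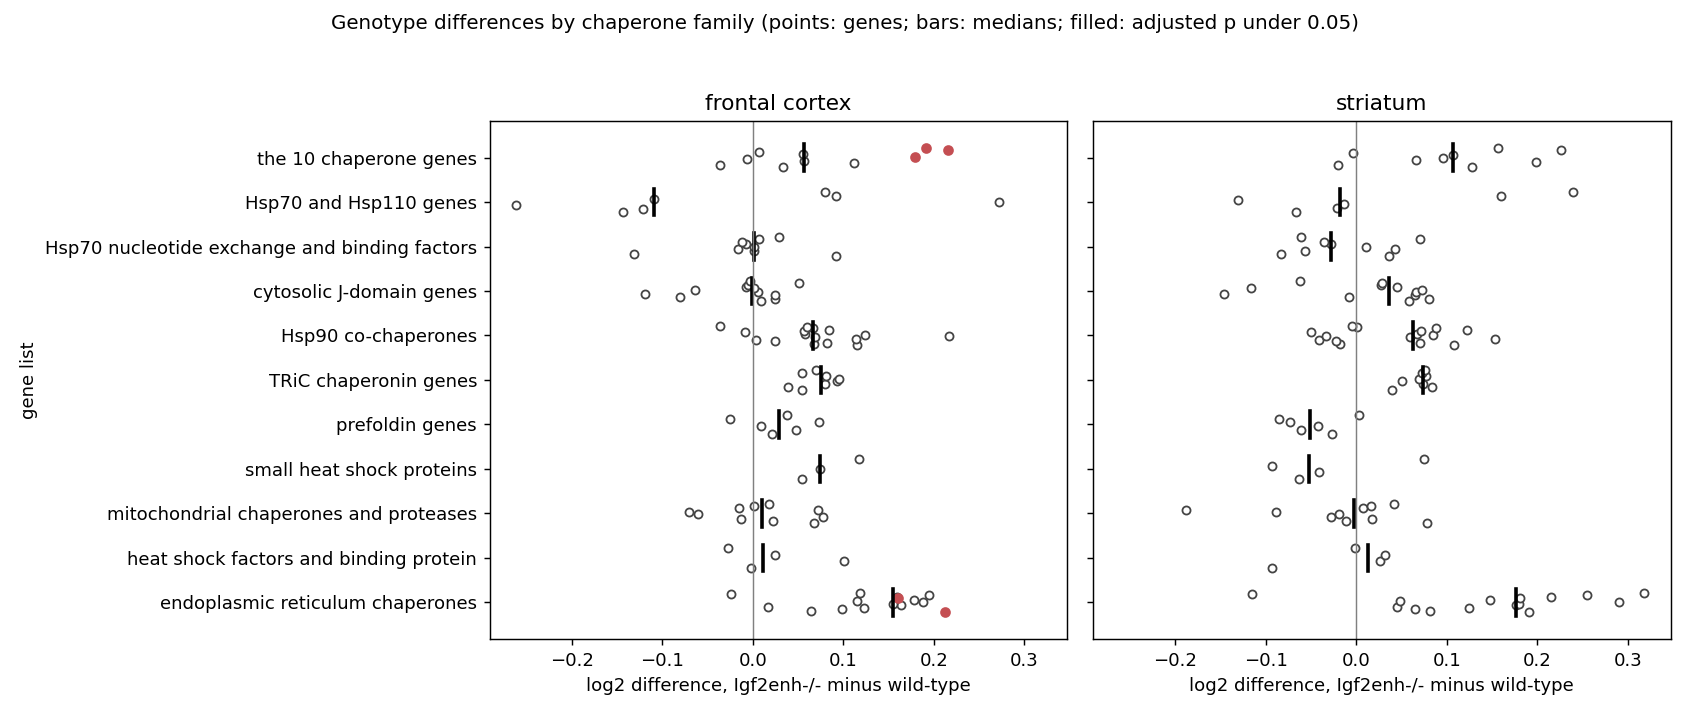
Log2 differences of Igf2enh-/- minus wild-type (x axes) for the 10 genes and for the genes of 10 chaperone lists (y axis), with 1 point per gene, bars at medians and filled points past an adjusted p of 0.05. TRiC genes lie between 0.04 and 0.09 in both regions, and endoplasmic reticulum chaperones have medians of 0.16 and 0.18.

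Other gene groups differed by genotype in the same libraries. Of 14 neuronal immediate-early genes, 14 were lower in Igf2enh-/- mice in both regions (medians -0.61 and -0.64), with 0 past an adjusted p of 0.05 in edgeR and 9 and 8 under an unadjusted 0.05, as were 13.5% and 10.1% of all genes in either direction. Rbm3, a cold-inducible RNA-binding gene, fell by 0.54 (SE 0.0541) in frontal cortex and 0.53 (SE 0.0638) in striatum on the log2 scale. Of 10 clock genes in phase with Dbp, 10 were lower in both regions, and Ciart fell by 1.24 (SE 0.127) in frontal cortex and fell by 1.18 (SE 0.123) in striatum on the log2 scale. Of 8 oligodendrocyte markers, 8 were lower in both regions with 0 past the threshold, and their sum had medians of 1853 and 1787 CPM in wild-type and Igf2enh-/- frontal cortex and 6624 and 5405 CPM in striatum. Of the meningeal fibroblast markers, 7 of 8 lay above 0 in frontal cortex (median 0.33, 4 at an unadjusted p under 0.05) and 5 of 5 in striatum (median 0.24, 1 at an unadjusted p under 0.05), with 0 past an adjusted p of 0.05 in edgeR. Of 8 endothelial markers 6 lay below 0 in frontal cortex and 5 in striatum, and Itm2a passed in frontal cortex, where it fell by 0.26 (SE 0.0520) on the log2 scale, while Cldn5 differed by 0.34 (SE 0.0958). The part of these groups in the chaperone differences was not tested.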

How the data were processed

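RNA depleted of ribosomal RNA was sequenced as single-end reads in 27 libraries, 13 wild-type and 14 Igf2enh-/-. Per the study's methods and the labels, reads were trimmed (Trim Galore 0.5.0) and mapped by STAR to GRCm38 with GENCODE vM15, and the authors deposited unnormalized counts per gene, 1 table for each region. The strand setting of the counting is not given in the sources used here, so overlapping and antisense genes may share reads. Columns of other series numbered 0.

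For each fit, genes under 1 CPM in any library were dropped and the rest scaled by TMM. Two-sided p-values came from edgeR 4.0.16 in R 4.3.3 (quasi-likelihood F-test), with Benjamini-Hochberg adjustment over all genes and a threshold of 0.05. Each region was fitted with genotype and sex. A fit of all 27 libraries with 4 groups and sex gave the tests of region and of region by genotype. SE is the absolute log2 difference over the square root of F. Scripts were tested on simulated data. As alternatives the fits were repeated with the likelihood ratio test of edgeR, limma-voom (limma 3.58.1) and DESeq2 1.42.0, with other scalings and filters, without the sex term, with the library number group as a term and without single libraries. The fits within library number groups, and those without libraries 15 and 20 for region, for sex and for either by genotype, were chosen after seeing the data. Within-group deviations were taken on log2(CPM + 0.5).

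The members and the 22 other gene lists (198 genes, all matched to identifiers) were chosen with earlier results of these data known. The text names the 10 members, and from each list at most 5 genes past the threshold for genotype in either region or, where none passed, up to 2 of smallest p, and the 5 genes with deviations most like the mean of the members. Cldn5, Hspa1a and genes named for a regional difference or for the comparison without Hspa1b were chosen after their values were seen. Human and protein data of the study were not used here.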

Additional observations from a re-analysis of the deposited data

Results flagged for a closer look

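Among 40 groups of a gene's values (10 genes in 4 groups), 4 held a library far from the others of its group by Dixon's test, where chance flags about 1 group in 20. In wild-type striatum library 20 was lowest for Hsph1, at 255 CPM against 312 CPM for the next library, a gap of 0.58 of the group's range. It was also lowest for Hspd1, at 91.7 against 110 CPM, a gap of 0.709 of the range. In Igf2enh-/- frontal cortex library 7 was lowest for Hsp90ab1, at 1451 against 1521 CPM (0.661 of the range), and library 9 was lowest for Hspe1, at 17.4 against 21.6 CPM (0.725 of the range).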

How the results depend on the processing

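The count of the 10 genes called for genotype in frontal cortex was 3 in all 8 alternative fits and 1 to 3 in the 12 fits without 1 library, with 1 without library 9 and 1 without library 10. In striatum it was 0 in 11 of 12 alternative fits and 1 with DESeq2 (Hsp90aa1, adjusted p = 0.0122, against 0.0122 to 0.999 over its alternatives), and 0 in the 15 fits without 1 library. Over all genes, 53 were called for genotype in frontal cortex and 5 in striatum, against 247 and 112 with DESeq2, 232 and 56 with edgeR's likelihood ratio test (the study's own), 74 and 13 with filterByExpr and 459 and 10 with no filter, and 8 to 96 and 3 to 8 in the fits without 1 library. Striatal calls numbered 3 both with limma-voom and without the sex term, 1 in libraries up to 20 and 0 in libraries from 21. For sex, 6 genes in each region became 28 and 12 with the likelihood ratio test, 21 and 16 with DESeq2, 13 and 12 with filterByExpr and 185 and 14 with no filter, and 3 in striatum without libraries 15 and 20. For genotype by sex, 3 genes in frontal cortex became 12, 8 and 310 with the likelihood ratio test, DESeq2 and no filter, and 0 in striatum became 1 and 2 with the first pair of these. The count called for region was 6 to 7 in both genotypes, and the counts for sex, genotype by sex and region by genotype stayed at 0 in each alternative run. Hsph1, which did not pass for region, turned sign from -0.03 to 0.01 in wild-type mice both without libraries 15 and 20 and without library 20 alone (-0.06 to 0.01 over the fits without 1 library), and from -0.02 to 0.00 on the rounded scale in Igf2enh-/- mice with scaling by total count; the cause was not tested. Hspd1 passed for region in Igf2enh-/- mice at 0.11 with scaling by total count, 0.08 without libraries 15 and 20 and 0.09 without library 20. Under each scaling the median log2 difference of all genes lay within 0.037 of 0. It was furthest for region in wild-type mice, at 0.012 with TMM and 0.037 with scaling by total count. No paired analysis was possible because the groups share no replicate numbers and the labels do not tie libraries to mice. Counts of 10 to 234 per library limit the precision of Hspa1b.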

Other observations

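Dnajb1 had a wider spread between Igf2enh-/- than between wild-type libraries in both regions. In frontal cortex its coefficient of variation was 2.65% among wild-type and 11.5% among Igf2enh-/- libraries, a ratio that 1.19% of 13936 genes reached. In striatum it was 4.60% and 14.9%, a ratio that 0.468% of 13875 genes reached. Stip1 had ratios of 2.28 in frontal cortex and 2.02 in striatum, reached by 10.6% and 2.69% of genes, and Hspa1b had a ratio of 3.36 in frontal cortex, reached by 2.87%, and of 1.11 in striatum. Without library 7 the frontal cortex ratio of Hspa1b was 1.5. Without library 19 the striatal ratios were 2.04 for Dnajb1, 1.41 for Stip1 and 0.507 for Hspa1b. Over the frontal cortex libraries left out in turn, the ratio of Dnajb1 ran from 3.87 to 5.46 and that of Stip1 from 1.60 (without library 5) to 3.42 (without library 10). Hsph1 had ratios of 0.751 and 0.904, and the median over all genes was 1.17 in frontal cortex and 0.809 in striatum. In striatum the highest Dnajb1 value, 52.0 CPM, was in library 19, which was also highest in its group for Stip1 and Hspa1b. Counting noise was not removed from these coefficients, and it is a larger share of a small one. The wild-type frontal cortex values were small, 2.65% for Dnajb1 at 1480 to 1562 counts and 1.44% for Stip1 at 3204 to 3506 counts. Their ratios can thus be high partly through a low wild-type value. The spread was looked at after the values had been seen and was not tested.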
